A study of Mus musculus with 26 samples.

Results

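RNA-seq of LSD1 knockout cells was compared between 2 mouse leukaemia models, MN1-transformed and H9M-transformed myeloid progenitors, to describe which lineage genes each model expressed once LSD1 was lost. The comparison takes the 3 MN1 knockout and the 3 H9M knockout libraries without all-trans retinoic acid (ATRA), 6 of the 26 samples of the series, chosen by their titles. Both groups are labelled C57BL/6 with the strain entry CreERT2-;LSD1TM1Schuele, which the controls carry too. Knockout cells are listed with 0.1 µM 4-hydroxytamoxifen (4-OHT) for 72 h, the drug that switches on CreERT2 recombinase. The labels do not say whether controls received 4-OHT, nor whether each model is 1 clone. All cells grew in medium with 15% serum, IL3 and IL6 at 10 ng/ml each and SCF at 100 ng/ml. The matched control libraries without ATRA (3 per model) and the knockout libraries with 1 µM ATRA (3 per model) were set beside the comparison, and no library is shared among these 3 pairs of groups. H9M stands for transformation with Hoxa9 and Meis1, and MN1 for transformation with the coactivator gene of that name.

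LSD1, encoded by Kdm1a, is a histone demethylase that removes methyl groups from lysine 4 of histone H3 at enhancers and promoters. In blood cells it is recruited by the zinc-finger repressors GFI1 and GFI1B together with CoREST and histone deacetylases. GFI1 and GFI1B oppose genes switched on by PU.1 (Spi1), the ETS factor needed for monocytes and granulocytes, and loss of LSD1 is known to push leukaemic progenitors towards myeloid maturation. GFI1 works mainly in granulocytic and lymphoid cells and GFI1B in the megakaryocytic, erythroid and mast cell branches. The part of either repressor in the differences reported here was not tested.

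All H9M libraries carry the same ending of the library code and all MN1 libraries another. The ending is read here as the sequencing run, although the labels do not define it. The model and the sequencing run, read this way, coincide, and neither can be told apart from the other in any level difference reported here. The labels do not say whether the 3 libraries of a group are separate cultures, so that p-values reflect no more than how these libraries vary, which may be technical. Each of the 6 knockout libraries held 22402558 to 27305060 counts. Between 17876 and 18280 genes had a count in the H9M knockout libraries, and between 19047 and 19373 in the MN1 knockout libraries. Levels are given as CPM, a gene's counts scaled to a fixed library total, with the SD over 3 libraries; CPM compare a gene between libraries and not with other genes. Differences are log2 values of MN1 minus H9M from edgeR's quasi-likelihood fit with their standard error (SE), positive where MN1 was higher. P-values were adjusted by Benjamini-Hochberg over the 14663 genes tested, and called genes are those below 0.05 after adjustment.

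The genes that define the models were checked first. Hoxa9, which encodes a homeodomain protein (ENSMUSG00000038227.15, chromosome 6, 52223097 to 52227370, GRCm38), had 22300, 23500 and 22500 CPM in the H9M knockout libraries and 65.1, 69.4 and 70 CPM in the MN1 knockout libraries, a 359.9-fold difference. Meis1, the gene of a HOX cofactor (ENSMUSG00000020160.18, chromosome 11, 18880428 to 19019651), had 267, 267 and 255 CPM in H9M knockout and no count in MN1 knockout cells, at least 6750-fold lower there (against a floor of 3 counts over the group, which covers counting error only). Mn1 (ENSMUSG00000070576.4, chromosome 5, 111417300 to 111457030) had 57.9, 46.2 and 50.3 CPM in MN1 knockout and no count in H9M knockout libraries, at least 1280-fold lower. All 3 genes follow the labels, although endogenous and transforming copies are not distinguished in the counts. Kit, Cd34 and Mpo, markers of myeloid progenitors, were counted in all 6 knockout libraries, at the levels given further on.

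Kdm1a (ENSMUSG00000036940.15, chromosome 4, 136550533 to 136602787) had 0.937, 0.998 and 0.952 CPM in the H9M knockout libraries and 1.41, 1.28 and 1.58 CPM in the MN1 knockout libraries. The controls had 138, 140 and 139 CPM in H9M and 187, 193 and 192 CPM in MN1 cells, so every knockout library lay far below every control. The small remainder was higher in MN1 knockout libraries, without overlap (log2 difference 0.46 ± 0.16, adjusted p = 0.0466). That call was lost with DESeq2 (adjusted p = 0.0527), with no count filter (0.0853), with only these libraries in the fit (0.0672) and when any 1 library other than MN1 replicate 2 was left out (0.0675 to 0.158). Among the other LSD1 complex members, Rcor2, a CoREST family corepressor, was 5.7-fold higher in MN1 knockout cells (39.5 ± 2.25 against 6.45 ± 0.365 CPM).

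The models differed widely after LSD1 loss. Of the 14663 genes tested, 10666 (72.7%) were called, 5339 (36.4%) higher in MN1 and 5327 (36.3%) higher in H9M knockout cells. At least 2-fold differences were called for 3938 genes (26.9%), 1975 (13.5%) higher in MN1 and 1963 (13.4%) higher in H9M. The 3 MN1 libraries lay above all 3 H9M libraries in CPM for 44.5% of genes and below all 3 for 31.8%. These CPM are scaled by library totals alone, whereas the calls use TMM factors, so the shares and the calls rest on different scaling. With more than 7 genes in 10 called, a call by itself says little, and each gene list below is read by its at least 2-fold members against the 13.5% and 13.4% of all genes. The 24 lists hold 466 genes, of which 464 matched the table and 371 passed the count filter. Genes that passed the filter only because 1 model expresses them had to differ, and the counts over tested members are descriptions. Where scaling used library totals alone, the median difference of all genes moved by 0.107 and the share of calls that were higher in MN1 from 50.1% to 58.4%. Differences near that shift depend on the scaling.

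**Figure D1:**
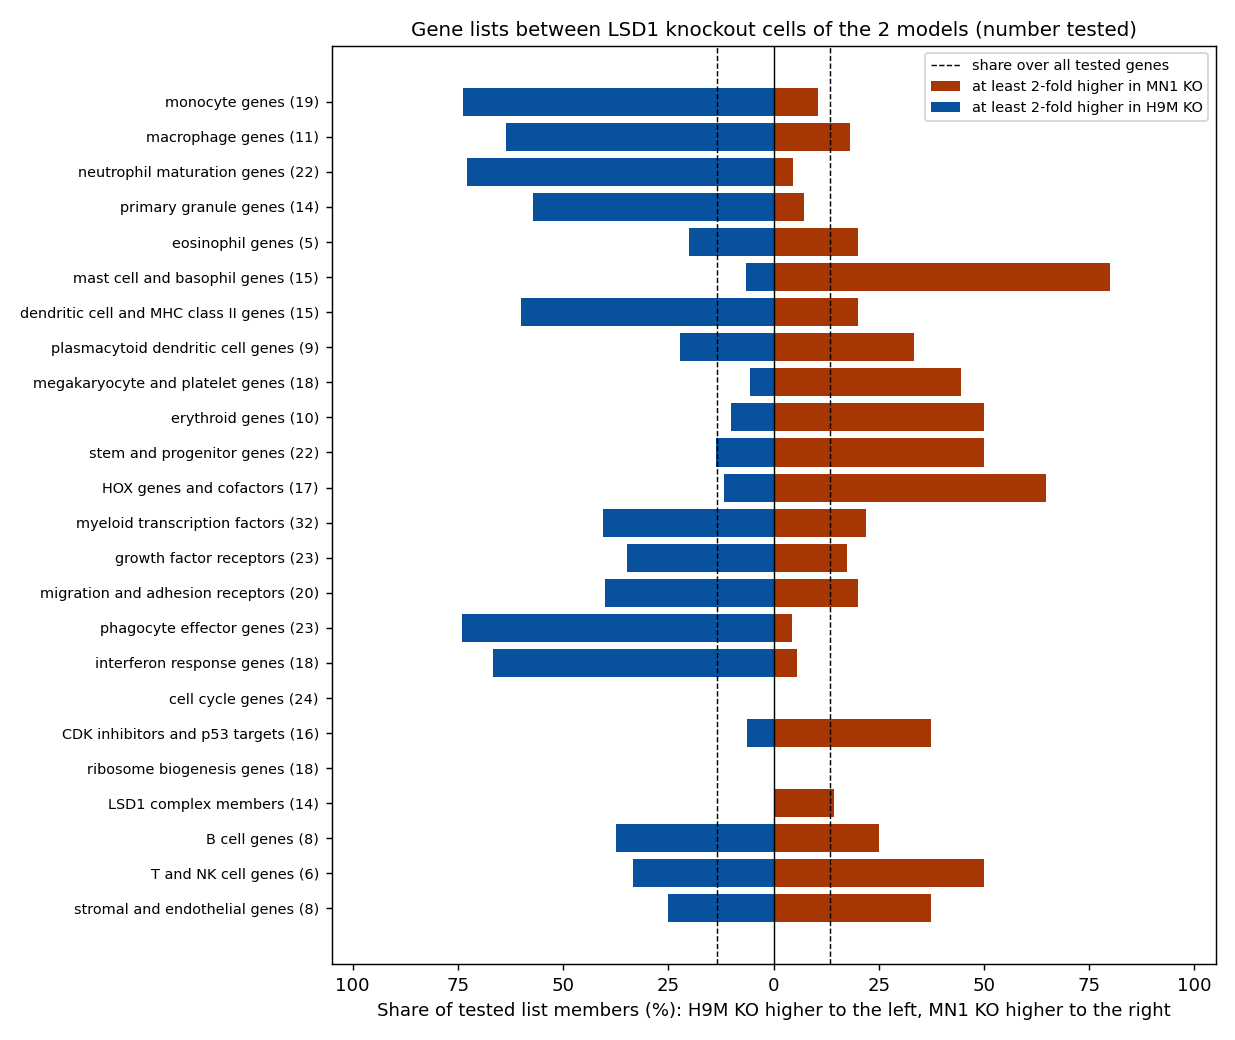
Share of the tested members of each of 24 gene lists (vertical axis, number tested in brackets) that were called and at least 2-fold higher in H9M knockout cells (bars to the left, %) or in MN1 knockout cells (bars to the right, %). Dashed lines mark the shares over all tested genes, 13.4% and 13.5%; monocyte, neutrophil and phagocyte lists extend to the left, and mast cell and HOX lists to the right.

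Monocyte genes were mostly higher in H9M knockout cells. Of 20 genes, 19 were tested, and 14 were at least 2-fold higher in H9M against 2 in MN1, with a median log2 difference of -3.44 (all genes, -0.00124). Csf1r, the receptor for the macrophage growth factor CSF1 (ENSMUSG00000024621.15, chromosome 18, 61105572 to 61131139), had 45.6, 47.8 and 45.6 CPM in H9M and 0.419, 0.441 and 0.463 CPM in MN1 knockout libraries, without overlap (112-fold, log2 difference -6.81 ± 0.12, adjusted p = 1.63e-29). Ly6c2, part of the Ly6C antigen of inflammatory monocytes (ENSMUSG00000022584.14, chromosome 15, 75108161 to 75112066), had 2690, 2790 and 2780 CPM in H9M and 71.8, 70.3 and 70.5 CPM in MN1 knockout libraries (log2 difference -5.39 ± 0.044, adjusted p = 6.95e-37). H9M was again above MN1 in every library, but Ly6c2 has a near-identical paralog, and the authors' counting could split reads between them. Mpeg1, a pore-forming protein of macrophages, had 201 ± 5.04 CPM against 7.3 ± 0.249 CPM (29.6-fold). Lyz2, which encodes lysozyme M, had 554 ± 23.8 against 49.6 ± 1.01 CPM (12-fold). The lysosomal protease gene Ctss and the membrane protein gene Ms4a6c were 37.6-fold and 70.4-fold higher in H9M. The exceptions were 2 genes: Ccr2, the chemokine receptor by which monocytes leave the marrow (ENSMUSG00000049103.13, chromosome 9, 124101918 to 124109140), and the nuclear receptor gene Nr4a1, the latter named after its values were seen. Ccr2 had 564, 587 and 578 CPM in MN1 and 231, 238 and 244 CPM in H9M knockout libraries (log2 difference 1.17 ± 0.079), so a monocyte receptor was higher in the model with lower Csf1r and Ly6c2. In bulk RNA, fewer cells of a type and less RNA per cell cannot be told apart.

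Macrophage genes split between the models. Of 22 genes only 11 passed the count filter, 7 of them at least 2-fold higher in H9M and 2 in MN1 knockout cells. The iron exporter gene Slc40a1 had 44.4 ± 1.82 CPM in H9M and 0.451 ± 0.174 CPM in MN1 knockout cells (104-fold), and Trem2, a lipid-sensing receptor, had 21 ± 1.47 against 2.02 ± 0.405 CPM. Fcgr1, the high-affinity IgG receptor, had 5.35 ± 0.519 against 0.31 ± 0.135 CPM, and the lysosomal glycoprotein gene Cd68 had 45.3 ± 1.52 against 12 ± 0.148 CPM. The opposite direction held for Adgre1, which encodes the F4/80 antigen (ENSMUSG00000004730.14, chromosome 17, 57358581 to 57483529): 337, 327 and 322 CPM in MN1 against 96.2, 106 and 106 CPM in H9M knockout libraries (log2 difference 1.57 ± 0.072). Stab1, a scavenger receptor of tissue macrophages and sinusoidal endothelium (ENSMUSG00000042286.13, chromosome 14, 31139017 to 31168651), had 508, 475 and 458 CPM in MN1 and 11.8, 10.8 and 10.2 CPM in H9M knockout libraries (40.9-fold). Adgre1 and Stab1 carried the summed level of the list, 813 to 881 CPM in MN1 against 243 to 253 CPM in H9M knockout libraries, so the sum and the median (-2.84, or -2.37 with genes of few counts at their bound) differ in sign. The median depended on single libraries and was -3.344 without H9M replicate 1, -2.021 without H9M replicate 3, -2.319 without MN1 replicate 1, -3.195 without MN1 replicate 2 and -3.174 without MN1 replicate 3. Marco, Ms4a7 and Timd4, genes of resident macrophages, had no count in any of the 12 control and knockout libraries without ATRA. The complement gene C1qa had 2 counts over the H9M knockout libraries and none over the MN1 ones.

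Genes of phagocyte function were almost all higher in H9M knockout cells. All 23 tested members were called, 22 higher in H9M and 1 higher in MN1 (Il1b, 1.07 against 0.397 CPM), with 17 against 1 at 2-fold or more and a median of -1.78. Cybb, the membrane subunit of the superoxide-producing NADPH oxidase (ENSMUSG00000015340.10, chromosome X, 9435252 to 9487766), had 244, 247 and 249 CPM in H9M and 0.191, 0.12 and 0.154 CPM in MN1 knockout libraries (1654-fold, log2 difference -10.69 ± 0.11, adjusted p = 1.9e-34). The MN1 value of Cybb rests on 12 counts over the 3 libraries, so the fold difference is approximate. Genes of cytosolic subunits of the enzyme had smaller fold differences: Ncf4 differed 29-fold (113 ± 2 against 4.19 ± 0.67 CPM) and Ncf1 2.5-fold (208 ± 3.55 against 89.7 ± 0.456 CPM). Tyrobp, the signalling adaptor DAP12, had 185 ± 1.87 against 6.24 ± 0.597 CPM. Slc11a1, the phagosomal metal transporter NRAMP1, had 82.1 ± 4.34 against 1.98 ± 0.154 CPM (44.5-fold). Fcgr3, a low-affinity IgG receptor, was 2.56-fold higher in H9M.

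Granulocyte genes were also mostly higher in H9M knockout cells, on both the primary granule and the neutrophil maturation list. Of the 14 primary granule genes, all tested, 8 were at least 2-fold higher in H9M and 1, the proteoglycan gene Srgn, in MN1 (median -1.49). Srgn lay at the 2-fold limit and fell under it without H9M replicate 1 or without MN1 replicate 2. Elane, neutrophil elastase (ENSMUSG00000020125.6, chromosome 10, 79886312 to 79888216), had 2270, 2330 and 2280 CPM in H9M and 78.1, 77 and 80 CPM in MN1 knockout libraries (31.6-fold), and its neighbour Prtn3, proteinase 3, differed 39.5-fold (1801 ± 34.5 against 49.2 ± 3.88 CPM). Mpo, myeloperoxidase, had 8253 ± 127 CPM in H9M and 2251 ± 48.4 CPM in MN1 (3.95-fold), and Ctsg, cathepsin G, was lower in MN1 too (2086 ± 8.64 against 605 ± 2.74 CPM). These granule genes belong to promyelocytes and are shared by neutrophil and monocyte precursors.

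Of the 28 neutrophil maturation genes, 22 were tested, 16 at least 2-fold higher in H9M and 1 in MN1 (median -2.34). The gene on the MN1 side was Ngp, a secondary granule gene at 0.455 CPM in MN1 and 0.0271 CPM in H9M. Cd177, a neutrophil surface glycoprotein (ENSMUSG00000052212.6, chromosome 7, 24743983 to 24760334), had 180, 190 and 199 CPM in H9M and 0.0381, 0.0801 and 0.193 CPM in MN1 knockout libraries, without overlap. Padi4, the enzyme that citrullinates histones in neutrophils, had 174 ± 5.25 against 10.1 ± 0.672 CPM (18.5-fold). Hp, haptoglobin, had 186 ± 3.19 against 30.9 ± 2.36 CPM, and Cxcr2, the receptor for neutrophil chemokines, had 34 ± 2.25 against 9.84 ± 0.0905 CPM. Genes of the later granule stages were low in both models. Ltf, lactoferrin, had 0.15 ± 0.0718 CPM in H9M and 0.364 ± 0.0686 CPM in MN1 knockout cells (adjusted p = 0.0703), Camp had 10 and 4 counts over the 3 libraries, and Ly6g, the antigen of mature mouse neutrophils, had 8.45 ± 0.243 and 0.572 ± 0.0729 CPM.

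**Figure D2:**
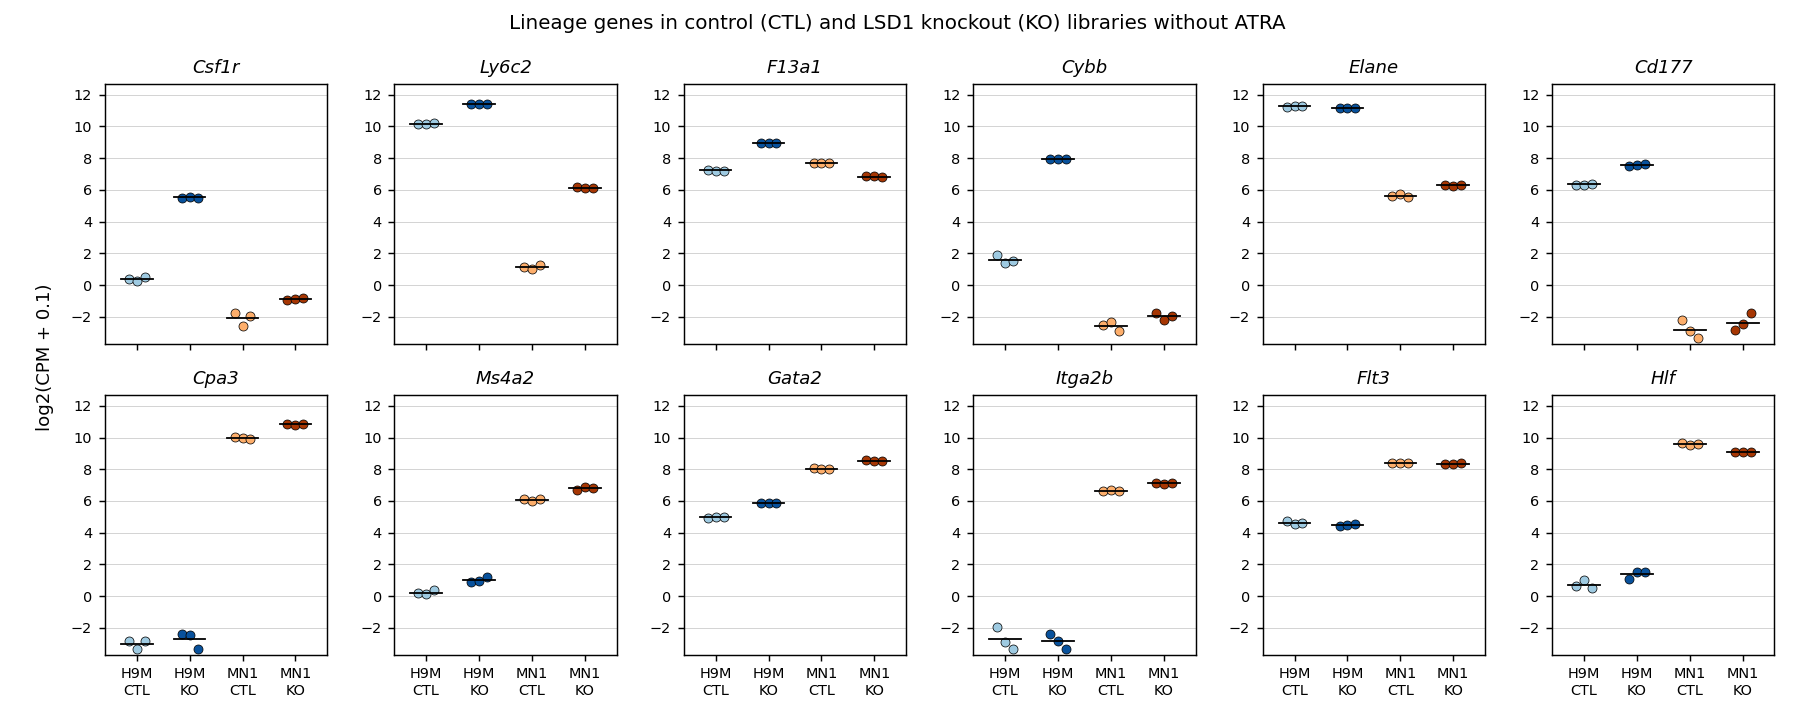
Levels of 12 lineage genes in control (CTL) and LSD1 knockout (KO) libraries without ATRA of both models, as log2(CPM + 0.1) on the vertical axis. Points are single libraries (3 per group) and lines their means; monocyte and granulocyte genes such as Csf1r, Cybb, Elane and Cd177 sit higher in H9M, and Cpa3, Ms4a2, Gata2, Itga2b, Flt3 and Hlf higher in MN1 knockout libraries.

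The promoters of 3 of these H9M-high genes are printed because GFI1 and PU.1, the factors named by the study's title, act through short DNA motifs. Each is the 250 bases before a RefSeq start (GRCm38.p6), 5′ to 3′ on the strand of the gene, with any match to a searched motif in capitals. Ly6c2 (chr15:75111972-75112221, minus strand) held 1 match, 108 bases before the start, to GAGGAAGT, a PU.1 motif. Irf8, the monocyte and dendritic cell factor described below (chr8:120736108-120736357, plus strand), held 1 match, 176 bases before the start, to AAATCAC, a GFI1 motif, here on the opposite strand. Cybb (chrX:9469325-9469574, minus strand) held none of the 5 motifs searched. The window of Ly6c2 lies partly, and that of Cybb wholly, inside the span of the gene in the gene table.
Ly6c2: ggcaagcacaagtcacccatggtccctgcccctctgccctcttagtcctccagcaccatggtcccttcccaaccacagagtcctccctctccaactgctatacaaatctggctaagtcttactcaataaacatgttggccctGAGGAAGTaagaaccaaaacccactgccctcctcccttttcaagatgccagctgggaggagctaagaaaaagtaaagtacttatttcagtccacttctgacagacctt
Irf8: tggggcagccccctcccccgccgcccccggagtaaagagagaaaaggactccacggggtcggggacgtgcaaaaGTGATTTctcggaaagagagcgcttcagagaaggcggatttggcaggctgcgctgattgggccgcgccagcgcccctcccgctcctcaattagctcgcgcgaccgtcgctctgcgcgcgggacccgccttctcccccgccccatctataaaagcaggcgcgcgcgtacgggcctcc
Cybb: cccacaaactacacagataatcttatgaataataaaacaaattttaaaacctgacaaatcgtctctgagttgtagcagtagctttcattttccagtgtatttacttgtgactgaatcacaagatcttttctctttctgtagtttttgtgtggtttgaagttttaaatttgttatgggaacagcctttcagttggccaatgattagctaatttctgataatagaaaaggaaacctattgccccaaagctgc

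Transcription factors of the myeloid branches were split between the models. Of 32, all tested, 13 were at least 2-fold higher in H9M and 7 in MN1 knockout cells. Irf8, which directs monocyte and dendritic cell fate (ENSMUSG00000041515.9, chromosome 8, 120736358 to 120756694), had 395, 390 and 401 CPM in H9M and 24.1, 25.2 and 24.6 CPM in MN1 knockout libraries (17.3-fold, log2 difference -4.11 ± 0.048, adjusted p = 2.03e-33). Spi1, which encodes PU.1 (ENSMUSG00000002111.8, chromosome 2, 91082374 to 91115759), had 180, 178 and 186 CPM in H9M and 90.2, 96 and 87 CPM in MN1 knockout libraries (2.15-fold, without overlap). Cebpa, the granulocyte-monocyte factor, differed 1.79-fold (392 ± 13.4 against 235 ± 10.5 CPM). Tfec, a macrophage relative of MITF, had 310.5 ± 7.1 against 8.19 ± 0.926 CPM.

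The repressor genes themselves were expressed in both models. Gfi1 (ENSMUSG00000029275.17, chromosome 5, 107716655 to 107725805) had 295, 296 and 302 CPM in H9M and 297, 285 and 291 CPM in MN1 knockout libraries, which overlap. Its call (log2 difference -0.14 ± 0.038, adjusted p = 0.00139) was lost with scaling by library totals (adjusted p = 0.432). Gfi1b (ENSMUSG00000026815.14, chromosome 2, 28609450 to 28621982) had 472, 478 and 475 CPM in MN1 and 112, 128 and 116 CPM in H9M knockout libraries (3.72-fold, log2 difference 1.90 ± 0.049, adjusted p = 9.37e-25). Inhibitors of basic helix-loop-helix factors were higher in MN1: Id3 had 91.6 ± 3.31 against 0.596 ± 0.146 CPM and Id2 31.5 ± 1.39 against 3.25 ± 0.0673 CPM. Ikzf2, which encodes Helios, had 65.5, 67.8 and 65.4 CPM in MN1 and no count in H9M knockout libraries, at least 1650-fold lower.

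Mast cell and basophil genes were mostly higher in MN1 knockout cells. Of 19 genes, 15 were tested, 12 of them at least 2-fold higher in MN1 and 1 in H9M knockout cells, with a median of 8.28, or 5.72 when the 6 genes with at most 3 H9M counts are set at their bound. The summed level of the list was 3930 to 4020 CPM in MN1 and 287 to 295 CPM in H9M knockout libraries. Cpa3, mast cell carboxypeptidase (ENSMUSG00000001865.2, chromosome 3, 20215616 to 20242209), had 1830, 1800 and 1840 CPM in MN1 knockout libraries, and in H9M knockout cells it had 4 counts over 3 libraries (adjusted p = 6.83e-38). Ms4a2, the beta chain of the high-affinity IgE receptor (ENSMUSG00000024680.12, chromosome 19, 11615517 to 11623790), had 103, 117 and 114 CPM in MN1 and 1.79, 1.84 and 2.23 CPM in H9M knockout libraries (52.6-fold, log2 difference 5.72 ± 0.12). The alpha chain gene Fcer1a stayed low, with 1.5 ± 0.224 CPM in MN1 and no count in H9M knockout cells, at least 37.5-fold lower.

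Hdc, the enzyme that makes histamine, had 1465 ± 27.7 CPM in MN1 and 197 ± 4.7 CPM in H9M knockout cells (6.91-fold). Gata2, the stem and mast cell transcription factor (ENSMUSG00000015053.14, chromosome 6, 88193891 to 88207032), had 378, 374 and 361 CPM in MN1 and 57.2, 58.5 and 59.5 CPM in H9M knockout libraries (5.89-fold). The granule protease genes Gzmb, Tpsb2 and Cma1 had 16 ± 0.182, 13.4 ± 1.26 and 12.8 ± 0.447 CPM in MN1 and no count in H9M knockout cells, at least 398-, 334- and 320-fold lower, and Tpsb2 shares sequence with Tpsab1. Mcpt8, a basophil protease, had 24.4, 24.4 and 23.7 CPM in MN1 and 8.26, 8.02 and 7.36 CPM in H9M knockout libraries. Its direction was the opposite in the controls, with 16.9 ± 0.592 CPM in H9M and 8.13 ± 0.0829 CPM in MN1 (change 2.66 ± 0.1, adjusted p = 1.39e-18). Mitf, a factor of mast cells that macrophages use too, went the other way, with 14.8 CPM in H9M and 4.09 CPM in MN1 knockout cells, and was named after its values were seen. Mcpt4, Mcpt1 and Prss34 had 6, 3 and 3 counts over the MN1 knockout libraries, so several proteases of mature mast cells and basophils were near the floor.

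The promoters of Cpa3 and Ms4a2, mast cell genes with large differences, and of Gfi1b, the repressor gene higher in MN1, are printed with the same conventions. Ms4a2 (chr19:11623720-11623969, minus strand) held a HOX-MEIS motif (TGATTNAT) 55 bases and a GATA motif (AGATAAG) 38 bases before the start, both on the opposite strand. Cpa3 (chr3:20242182-20242431, minus strand) and Gfi1b (chr2:28621983-28622232, minus strand) held none of the 5 motifs. The windows of Cpa3 and Ms4a2 lie partly inside the gene's span in the gene table.
Ms4a2: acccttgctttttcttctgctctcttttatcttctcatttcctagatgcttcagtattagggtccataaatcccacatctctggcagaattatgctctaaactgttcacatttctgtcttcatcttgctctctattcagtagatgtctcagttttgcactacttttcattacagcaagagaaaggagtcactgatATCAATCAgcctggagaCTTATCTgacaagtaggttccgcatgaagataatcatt
Cpa3: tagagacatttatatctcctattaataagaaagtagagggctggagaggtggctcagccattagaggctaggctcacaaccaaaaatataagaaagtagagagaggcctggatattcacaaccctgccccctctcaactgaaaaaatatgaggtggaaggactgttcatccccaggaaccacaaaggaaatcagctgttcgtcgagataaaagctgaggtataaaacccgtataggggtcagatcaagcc
Gfi1b: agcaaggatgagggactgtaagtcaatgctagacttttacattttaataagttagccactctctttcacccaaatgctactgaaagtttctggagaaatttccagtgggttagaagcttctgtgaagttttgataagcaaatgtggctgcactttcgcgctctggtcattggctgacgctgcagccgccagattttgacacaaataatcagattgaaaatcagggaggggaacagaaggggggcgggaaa

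A match describes letters and not a bound site, and no match says only that these letters are absent from the window. Both strands were searched, and the motifs do not overlap in the printed windows. Promoters on chromosome 18 were left out of every set, and the tested set held 13127 promoters of 10316 genes. Of the 1132 promoters of genes at least 4-fold higher in MN1 knockout cells, 2.12% held the PU.1 motif, compared with 3.97% of 957 promoters of genes at least 4-fold higher in H9M. The share was 2.68% of the promoters of tested genes and 2.44% of all 32851 promoters searched. The GFI1 motif was in 1.77%, 2.51%, 1.84% and 2.75% of the same sets, and TTGCNNAA, a C/EBP motif, in 7.95%, 10.9%, 7.74% and 9.56%. The HOX-MEIS motif was in 2.56%, 1.99%, 1.24% and 2.82%, and the GATA motif in 2.3%, 3.24%, 1.86% and 2.74%. No test was made of these shares.

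Megakaryocyte and erythroid genes were more often higher in MN1 than in H9M knockout cells. Of 22 megakaryocyte and platelet genes, 18 were tested, 8 at least 2-fold higher in MN1 (5 with a mean of at least 1 CPM required) and 1 in H9M knockout cells (median 0.598, or 0.677 at the bound). The H9M count was 2 with any 1 of H9M replicates 1 and 2 and MN1 replicates 1 to 3 left out, and the median was 1.053 without H9M replicate 1 and 0.8691 without MN1 replicate 2. Itga2b, integrin alpha IIb of early megakaryocytes and stem cells (ENSMUSG00000034664.13, chromosome 11, 102453297 to 102469883), had 142, 136 and 140 CPM in MN1 knockout libraries and 3 counts over the H9M ones, a ratio of 1190 to 16800 (95% counting interval). Plek, which encodes pleckstrin of platelets, had 481 ± 16.8 against 139.9 ± 5.44 CPM, and the GATA1 cofactor gene Zfpm1 had 50.6 ± 0.581 against 14.1 ± 0.217 CPM. Pf4, platelet factor 4, was low in both, with 5.45, 4.21 and 3.85 CPM in MN1 and 6.47, 7.06 and 4.98 CPM in H9M knockout libraries, which overlap. Thbs1, thrombospondin 1, was the list member at least 2-fold higher in H9M (102 ± 5.58 against 19 ± 2.41 CPM).

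Of 23 erythroid genes, 10 were tested, 5 at least 2-fold higher in MN1 and 1, the biliverdin reductase gene Blvrb, in H9M. The median was 1.94, but 1.467 without MN1 replicate 2 and 3.33 without H9M replicate 2. The summed level of the list went the other way, with 738 to 788 CPM in H9M and 650 to 677 CPM in MN1 knockout libraries. Gata1, the master factor of this branch (ENSMUSG00000031162.14, chromosome X, 7959260 to 7976663), had 10.4, 9.54 and 10.2 CPM in MN1 and 0.312, 0.12 and 0.183 CPM in H9M knockout libraries. Epor, the erythropoietin receptor, had 4.88 ± 0.232 against 0.114 ± 0.0996 CPM. Globin was near the floor: Hbb-bt had 1.01 ± 0.505 CPM in MN1 and 0.0415 ± 0.04 CPM in H9M knockout cells, and Klf1, a later erythroid factor, had 0.7 ± 0.0658 and 1.14 ± 0.398 CPM.

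Stem and progenitor genes were higher in MN1 knockout cells for 11 of 22 tested genes at 2-fold or more, and in H9M for 3, Prom1, Ly6a and Lyl1 (median 0.949). Hlf, a factor of stem cells (ENSMUSG00000003949.16, chromosome 11, 90336535 to 90390917), had 538, 538 and 539 CPM in MN1 and 2.05, 2.75 and 2.71 CPM in H9M knockout libraries (198-fold, adjusted p = 1.39e-35). Flt3, a cytokine receptor of early progenitors (ENSMUSG00000042817.15, chromosome 5, 147330741 to 147400489), had 326, 319 and 336 CPM against 21, 22.2 and 23.5 CPM (13.6-fold). Cd34, a progenitor surface sialomucin (ENSMUSG00000016494.9, chromosome 1, 194938821 to 194961292), had 3130, 3110 and 3160 CPM against 970, 943 and 979 CPM (3.02-fold). None of these 3 genes overlapped between the models. Smaller gaps were measured for Kit, the receptor of SCF (266 ± 3.99 against 133 ± 2.6 CPM), and for the factor gene Myb (479.6 ± 12.6 against 266 ± 11.2 CPM). Adgrg1, also known as GPR56, had 1471 ± 22.9 against 109 ± 4.94 CPM. Prom1, which encodes CD133, was on the H9M side, with 6.07, 6.03 and 6.01 CPM there and no count in MN1 knockout libraries, at least 155-fold lower.

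Most genes of the HOX and cofactor list were higher in MN1 knockout cells. Of 17 tested HOX genes and cofactors, 11 were at least 2-fold higher in MN1 (7 with a mean of at least 1 CPM required) and 2 (Hoxa9 and Meis1) in H9M knockout cells (median 4.88, or 4.75 at the bound). The 11 include Mn1, the gene that defines the MN1 model, and the list also holds MEIS, PBX and PKNOX genes. That median was 4.56, 4.345 and 5.679 without H9M replicate 1, 2 and 3. Hoxa10 had 169, 171 and 184 CPM in MN1 and no count in H9M knockout libraries, at least 4360-fold lower, and Hoxa11 had 72.1, 71.6 and 83.9 CPM against none, at least 1890-fold lower. Hoxa genes overlap each other and antisense transcripts, and whether counting used strand is unknown, so their values are uncertain. Hoxa9 alone took 2.23% to 2.35% of all counts in the H9M knockout libraries and at most 0.007% in the MN1 ones.

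Cytokine receptors, adhesion receptors and interferon response genes were more often higher in H9M knockout cells. Of 23 growth factor receptors tested, 8 were at least 2-fold higher in H9M and 4 in MN1 knockout cells. Il6ra, the receptor chain for IL6 in the medium, had 91.1 ± 2.56 against 10.5 ± 0.864 CPM (9.3-fold), and Ifngr1, the interferon gamma receptor, had 424 ± 3 against 83 ± 1.3 CPM. Csf3r, the G-CSF receptor, differed 2.08-fold and Csf2ra, a GM-CSF receptor chain, 1.81-fold, both higher in H9M. Among 20 tested migration and adhesion receptors, 8 were at least 2-fold higher in H9M and 4 in MN1. Cxcr4, the receptor that holds cells in the marrow, had 141, 138 and 142 CPM in H9M and 19.5, 18.8 and 20.2 CPM in MN1 knockout libraries. The integrin genes Itgb2 and Itgam, which together form the Mac-1 antigen, differed 5.97-fold and 27.9-fold. Interferon response genes were at least 2-fold higher in H9M for 12 of 18 tested and in MN1 for 1 (Rsad2). Oas1a, an antiviral nucleotide synthetase, had 44.3 ± 3.26 against 0.67 ± 0.237 CPM, and Ifitm3, a membrane restriction factor, 601 ± 3.57 against 269 ± 7.31 CPM.

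Antigen presentation and dendritic genes were more often higher in H9M than in MN1 knockout cells. Of 22 genes, 15 were tested, 9 at least 2-fold higher in H9M and 3 (Itgax, Zbtb46 and Batf3, all under 1 CPM) in MN1 knockout cells. H2-Ab1, an MHC class II chain, was 47.5 ± 3.72 CPM in MN1 and 29.2 ± 1.25 CPM in H9M knockout cells, while its partner gene H2-Aa had 0.104 ± 0.0242 and 0.662 ± 0.165 CPM. Ciita, the master regulator of class II genes, had 17 counts over the MN1 and none over the H9M knockout libraries. Cd74, also among the first 4 genes of the list, had 9.07 ± 1.14 CPM in H9M and 3.68 ± 0.767 CPM in MN1 knockout cells. Cst3 had 259 ± 2.61 CPM in H9M against 100.5 ± 2.88 CPM in MN1, and Naaa 21.5 ± 1.52 against 1.99 ± 0.22 CPM. Of 14 plasmacytoid dendritic cell genes 9 were tested, 3 at least 2-fold higher in MN1 and 2 in H9M (1 without MN1 replicate 1 or 2), and the defining gene Siglech had no count. Of 12 eosinophil genes 5 were tested, 1 at least 2-fold higher in each model. Epx, eosinophil peroxidase, had 0.779 ± 0.379 CPM in H9M and 0.0127 ± 0.022 CPM in MN1 knockout cells. Ccr3, the gene on the MN1 side, had 1.27 ± 0.157 CPM in MN1 knockout cells and 1 count over the H9M knockout libraries.

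Proliferation genes separated the models little. None of 24 cell cycle genes differed 2-fold, and 8 were called higher in MN1 and 10 in H9M, a split that became 12 against 5 with library totals, while the list's median turned from -0.00144 to 0.106. Mcm7, a replicative helicase subunit, had 360.4 ± 6.38 CPM in MN1 and 301 ± 2.13 CPM in H9M knockout cells, and E2f1, a factor of the G1 to S step, 31.4 ± 1.91 against 54.7 ± 1.48 CPM. All 18 ribosome biogenesis genes were called higher in MN1 under each of the 3 scalings, none by 2-fold, with a median of 0.502 against a largest shift between scalings of 0.107. Npm1, nucleophosmin, had 2224 ± 46.4 against 1287 ± 27.2 CPM. Of 16 CDK inhibitors and p53 targets, 6 were at least 2-fold higher in MN1 and 1 (Cdkn2d) in H9M. The 6 include Cdkn2a and Cdkn2b, which had 0 and 1 counts over the H9M knockout libraries. Cdkn1a, which encodes p21 (ENSMUSG00000023067.13, chromosome 17, 29090979 to 29100722), had 450, 454 and 435 CPM in MN1 and 122, 112 and 117 CPM in H9M knockout libraries (3.54-fold), and the p53 targets Zmat3 and Phlda3 were 7.52-fold and 15.1-fold higher in MN1.

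Markers of cells that these cultures should not hold were mostly at or near 0. Of 14 B cell genes 8 passed the filter, 2 at least 2-fold higher in MN1 and 3 in H9M. Of 20 genes of T and NK cells 6 passed, 3 higher in MN1 and 2 in H9M, and of 15 stromal or endothelial genes 8 passed, 3 higher in MN1 and 2 in H9M. Cd3e and Cdh5, which define T cells and endothelium, had no count in the 12 libraries, and Pax5, a B cell factor, had at most 1 count over a knockout group. The summed level of the B cell list was 2.9 to 3.35 CPM in MN1 and 3.57 to 4.03 CPM in H9M knockout libraries. The larger T cell sum in H9M (421 to 443 CPM against 55.3 to 60.1 CPM) came from Thy1, a surface antigen also found on early blood cells (414 ± 12.5 against 34.1 ± 2.28 CPM). In the stromal list Pecam1, an adhesion molecule that blood cells express too, made up most of the sum in both models (602 ± 7.21 and 523 ± 7.96 CPM). The part of these genes in the lineage differences was not tested.

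Among the genes with the largest differences were some with no place in these lists. Csn2, the milk protein beta-casein and a known target of STAT5 (ENSMUSG00000063157.9, chromosome 5, 87692619 to 87699429), had 1530, 1450 and 1560 CPM in H9M and no count in MN1 knockout libraries, at least 39000-fold lower. Nrp2, the semaphorin receptor neuropilin 2, had 95.2 ± 3.56 CPM in H9M and no count in MN1 knockout cells, at least 2450-fold lower. In MN1 knockout libraries Adgrg6, an adhesion G protein receptor, had 276, 274 and 272 CPM, Tjp1, a tight junction protein, 196, 199 and 199 CPM, and Zfp521, a zinc-finger factor of immature cells, 185, 184 and 185 CPM. All 3 had no count in the H9M knockout libraries, at least 6830-, 4940- and 4610-fold lower.

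Most at least 2-fold differences between the knockouts were also measured between the controls, which share no library with them. Between the controls 10779 genes (73.5%) were called, 37.6% higher in MN1 and 35.9% higher in H9M, 3969 (27.1%) of them at least 2-fold. Of the at least 2-fold genes, 3130 were so in the same direction in both states, 79.5% of the knockout genes and 78.9% of the control genes, and 28 in opposite directions. Gene by gene, Cpa3 had 1001 CPM in MN1 and 0.0259 CPM in H9M controls, Elane 49.6 against 2447 CPM, and Hlf 777 against 1.56 CPM. The monocyte list had 12 genes at least 2-fold higher in H9M and 4 in MN1 controls, against 13.7% and 13.4% of all genes. The phagocyte list had 16 against 1, and the mast cell list 3 against 11.

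The difference between the models changed with the knockout for 4159 genes (28.4%), tested as the knockout difference minus the control difference. In that test a constant offset between the endings of the library code cancels on the log scale. It changed by at least 2-fold for 908 genes (6.19%), 3.22% towards MN1 and 2.97% towards H9M, of which the gap was narrower in knockout cells for 593 and wider for 315. On the monocyte list 9 of 19 genes shifted towards H9M and 4 towards MN1, against 14.2% of all genes in each direction. Other myeloid lists shifted more often towards MN1: the primary granule list with 9 of 14 genes against 2 towards H9M, the phagocyte list with 12 of 23 against 8 (median change 0.288) and the neutrophil maturation list with 7 of 22 against 4. Of the 24 cell cycle genes, 16 shifted towards H9M and 2 towards MN1, with a median change of -0.25. Among stem and progenitor genes, 10 of 22 shifted towards H9M and 5 towards MN1. Csf1r had 1.19, 1.1 and 1.33 CPM in H9M and 0.189, 0.0646 and 0.164 CPM in MN1 controls, and its difference changed by -3.62 ± 0.52 (adjusted p = 1.91e-06), widening on the H9M side. F13a1, coagulation factor XIII of monocytes, was slightly higher in MN1 controls (205, 211 and 211 against 155, 145 and 148 CPM) and 4.72-fold higher in H9M knockouts (497, 500 and 506 against 115, 116 and 111 CPM), a change of -2.64 ± 0.055. Ly6c2 went the other way: 2.11 ± 0.196 CPM in MN1 controls and 1153 ± 26 CPM in H9M controls gave a wider gap than the knockouts (change 3.79 ± 0.082). Ccr2 narrowed as well, from 502 ± 10 against 42.8 ± 5.07 CPM in controls (change -2.29 ± 0.12).

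Irf8 had a similar level in both controls, 7.75, 8.77 and 7.65 CPM in H9M and 8.94, 9.11 and 8.81 CPM in MN1, where the difference was 0.061 ± 0.075 (adjusted p = 0.482) (change in knockouts -4.17 ± 0.089, adjusted p = 2.74e-25). Cybb widened from 2.96 ± 0.578 against 0.0684 ± 0.0327 CPM in the controls (change -5.26 ± 0.93). That change is approximate, with 6 Cybb counts over the MN1 controls. Stab1 had 1.5, 1.28 and 1.1 CPM in H9M and 1.32, 0.937 and 0.983 CPM in MN1 controls, and the gap of the knockouts opened on the MN1 side (change 5.72 ± 0.27, adjusted p = 1.28e-16). Spi1 had 162 ± 3.73 CPM in H9M and 80.1 ± 2.71 CPM in MN1 controls, a gap of the same direction and size as in the knockouts, and no change was called.

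The gap of Gfi1b narrowed in the knockouts. The gene had 0.116, 0.142 and 0.157 CPM in H9M (11 counts over the 3 libraries) and 72.9, 70.7 and 65.9 CPM in MN1 controls. The difference was 460-fold there and 3.72-fold in the knockouts (change -6.95 ± 0.19, adjusted p = 1.35e-22). With so few H9M control counts, the control fold difference and the change of Gfi1b are approximate. Camk1d, a calcium-dependent kinase, had 14.7 ± 0.733 against 0.273 ± 0.118 CPM in controls and 34.9 ± 1.26 against 30.4 ± 0.922 CPM in knockouts, where MN1 libraries were above H9M libraries in CPM but the difference was not called (adjusted p = 0.185; 0.00426 with library totals). Tmem268, which encodes a transmembrane protein, had 8 ± 0.878 against 0.239 ± 0.0419 CPM in controls and 94 ± 1.58 against 84.5 ± 3.33 CPM in knockouts (adjusted p = 0.42; 0.00731 with library totals). Qpct, glutaminyl cyclase, had 4.07 ± 0.59 against 0.0743 ± 0.0337 CPM in controls and 7.7 ± 0.264 against 5.69 ± 0.428 CPM in knockouts. In the other direction, Smad6, an inhibitor of BMP signalling, and Amotl1, a junction protein, were higher in H9M controls (0.866 ± 0.0362 against 0.184 ± 0.0498 and 1.33 ± 0.125 against 0.346 ± 0.0924 CPM) and higher in MN1 knockouts (10.6 ± 1.08 against 0.458 ± 0.156 and 63.3 ± 2.71 against 3.3 ± 0.413 CPM). Mgst1, a microsomal glutathione transferase, narrowed from 73.6 ± 7.51 against 0.25 ± 0.0485 CPM in controls to 207 ± 2.83 against 29.8 ± 1.1 CPM in knockouts. The changes of Camk1d, Tmem268, Qpct, Smad6, Amotl1 and Mgst1 also rest on few counts in the lower control group.

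**Figure D3:**
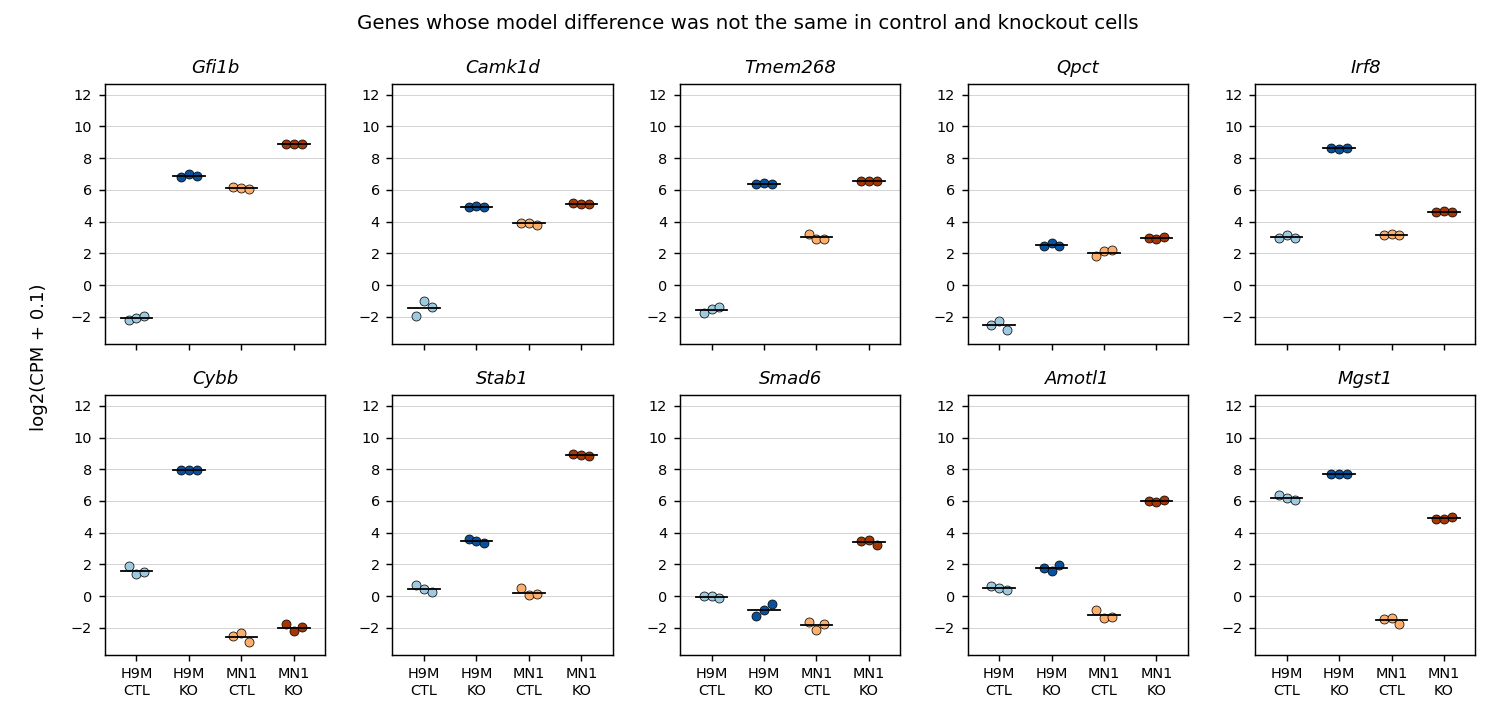
Levels of 10 genes whose model difference was not the same in control (CTL) and knockout (KO) cells, as log2(CPM + 0.1) on the vertical axis, with single libraries as points and group means as lines (3 libraries per group). The knockout groups lie closer together than the controls for Gfi1b, Camk1d, Tmem268, Qpct and Mgst1 and farther apart for Irf8, Cybb and Stab1, while Smad6 and Amotl1 change side.

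**Figure D4:**
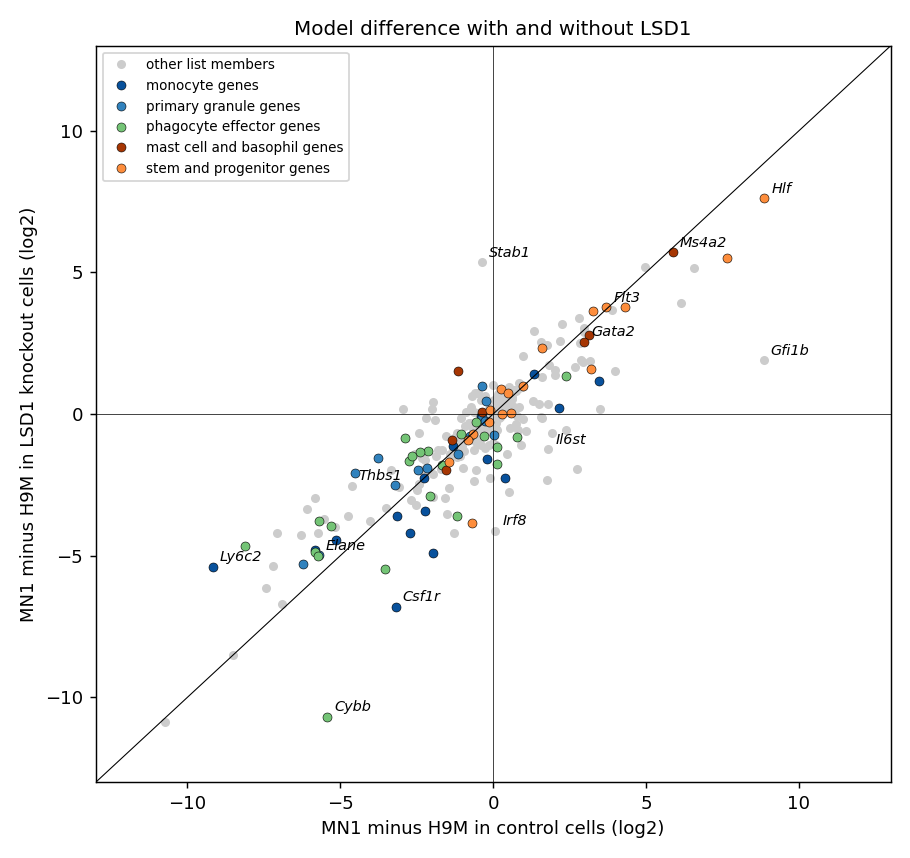
Log2 difference MN1 minus H9M in knockout cells (vertical axis) against that in control cells (horizontal axis) for 301 list genes with more than 3 counts in each group, with 5 lists in colour. The line marks equal differences in both states. Irf8, Cybb and Csf1r fall below it, and Stab1 above it.

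With ATRA the knockout comparison was repeated in 6 other libraries, in which the loss of Kdm1a was less complete in H9M. Kdm1a had 11.5, 10.3 and 11.5 CPM in H9M and 2.22, 1.85 and 2.36 CPM in MN1 knockout libraries with ATRA, the opposite direction to that without ATRA (log2 difference -2.53 ± 0.081, adjusted p = 2.08e-22). Its part in the differences below was not tested. Called were 10729 genes (73.2%), 36.2% higher in MN1 and 37.0% higher in H9M, 3967 (27.1%) at least 2-fold. Of these 3415 were at least 2-fold in the same direction without ATRA, 86.1% of the genes with ATRA and 86.7% of those without, and 10 in opposite directions. The phagocyte list had 20 of 23 genes at least 2-fold higher in H9M and 1 in MN1, against 13.5% and 13.6% of all genes, and the monocyte list 12 against 3. The mast cell list had 11 genes higher in MN1 and 2 in H9M. Csf1r had 26.9, 25 and 25.5 CPM in H9M and 0.234, 0.482 and 0.398 CPM in MN1 knockout libraries with ATRA, and Cybb 129, 128 and 130 against 0.273, 0.281 and 0.153 CPM, both without overlap. Cpa3 had 1410, 1310 and 1400 CPM in MN1 and 0.133, 0.0792 and 0.036 CPM in H9M libraries. Mcpt8 had the opposite direction here, with 6.26, 6.97 and 6.88 CPM in H9M and 5.84, 5.38 and 5.91 CPM in MN1 knockout libraries (log2 difference -0.40 ± 0.091, adjusted p = 0.000248). With scaling by library totals the calls with ATRA split into 6940 higher in MN1 and 4133 higher in H9M, against 5309 and 5420 with TMM.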

How the data were processed

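RNA-seq libraries were made from total RNA with a stranded total RNA kit and sequenced as paired reads, per the labels' protocols. The table used holds the authors' deposited counts per gene, aligned with STAR 2.5.3 to mm10 per the submitters' processing notes. The counting tool, its annotation and its strand setting were not given in the sources used here. All 24 RNA libraries, 3 in each of 8 groups, were fitted together in edgeR 4.0.16 (R 4.3.3) with TMM factors, filterByExpr and the quasi-likelihood test, contrasting MN1 with H9M. Calls needed an adjusted p under 0.05 over 14663 tested genes, and "2-fold" calls also a fitted 2-fold difference. Ensembl identifiers were matched to symbols for 48349 of 48795 rows, and 446 were not matched. Gene coordinates come from the RefSeq gene table of the same assembly. Promoter windows are the 250 bases before a RefSeq start in GRCm38.p6.

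The members and gene lists were chosen with earlier results of these data known. Named were the models' own genes, Gfi1, Gfi1b and Spi1, the 15 genes per direction with the largest knockout difference and the 10 per direction with the largest change (mean of at least 5 CPM), and in each list the first 4 members and up to 4 called members by adjusted p and 4 by size. Nr4a1, Mitf, Il1b, Srgn, Ngp, Blvrb, Ly6a, Lyl1, Batf3, Cdkn2d and list genes given only by their counts were named after their values were seen. The fit was tested on simulated data. The alternatives were RLE factors, library totals, DESeq2 1.42.0, other filters, only the libraries compared, a replicate block and each library left out. Replicates of a group differed by more than counting noise (chi-square per degree of freedom 2.05 to 5.63). A floor of 3 counts over a group stands for 0, with 95% counting intervals for 1 to 3 counts.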

Additional observations from a re-analysis of the deposited data

Results flagged for a closer look

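The values below were singled out because the difference between the models was not the same in knockout and control cells, tested as the knockout difference minus the control difference on the log2 scale with edgeR's quasi-likelihood fit. The change was called for 4159 genes. Among genes named by the rule for this test, the difference shifted towards MN1 by 6.69 for Smad6, 6.18 for Amotl1, 5.72 for Stab1 and 5.36 for Mgst1. It shifted towards H9M, giving negative values, for Gfi1b (-6.95), Camk1d (-5.53), Cybb (-5.26), Qpct (-5.26), Sema3a (-4.97) and Tmem268 (-4.90). Over the H9M controls, counts were few: 6 for Qpct, 9 for Sema3a, 11 for Gfi1b, 19 for Tmem268 and 22 for Camk1d. Over the MN1 controls they were 6 for Cybb, 16 for Smad6, 22 for Mgst1 and 30 for Amotl1. The changes of these genes are approximate. Sema3a, a secreted guidance protein, had 2.01, 1.04 and 1.68 CPM in H9M and 2.25, 2.64 and 1.58 CPM in MN1 knockout libraries, and 0.0771, 0.248 and 0 against 5.21, 4.94 and 4.88 CPM in controls.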

How the results depend on the processing

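The counts of called genes stayed within 1.5 times under every alternative run. For the knockout comparison they were 9286 (mean of at least 1 CPM) to 11138 (no filter), and 10311 to 10429 with each library left out. For controls they were 10391 to 10557 with each library left out, for the change 3726 to 3863, and with ATRA 10350 to 10554. A mean of at least 1 CPM took the at least 2-fold calls from 3938 to 2611 in the knockouts and from 3967 to 2632 with ATRA, where fewer genes were tested. With that filter the at least 2-fold genes higher in MN1 were 2 of the growth factor receptors, 0 of the dendritic list and 0 of the neutrophil maturation list. The log2 difference of Hdac1 turned from -0.105 to 0.001973 with library totals (adjusted p = 0.965). Over 217 named genes, 1468 of the values under other settings kept direction and side of the threshold, 10 lost the call and 5 gained it. With a library left out, 1277 did, 24 lost the call and 1 gained it. With a library left out, 30 list medians moved by more than the spread between libraries and 114 did not. The replicate numbers did not pair the knockout libraries (correlations of same-numbered deviations 0.041, -0.016 and -0.0174), and the replicate block gave 10678 calls in knockouts, 10820 in controls, 4205 for the change and 10756 with ATRA. Genes with few counts in 1 model limit what depth can show.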

Other observations

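The genes of this section were chosen after their values were seen. Nlrc5, the transactivator of class I antigen presentation genes, had 67.4 ± 1.63 CPM in H9M knockout cells and 1 count over the MN1 ones, a ratio of 934 to 206000 (95% counting interval). B2m, the shared light chain, had 1194 ± 27.9 against 239 ± 1.74 CPM, and H2-D1, a heavy chain, 1157 ± 20.8 against 209.8 ± 0.566 CPM. H2-T23, a nonclassical heavy chain, had 49.5 ± 1.22 CPM in H9M and 51.6 ± 0.462 CPM in MN1 and was not called (edgeR, adjusted p = 0.417). Class I genes are similar in sequence, and reads may be split among them.

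Cdkn2a and Cdkn2b, cell cycle inhibitors that lie side by side, had 0 and 1 counts over the H9M knockout libraries, and 2.81 ± 0.852 and 3.78 ± 0.266 CPM in MN1 knockout cells. The controls were alike, with 0 and 2 counts over the H9M libraries and 3.57 ± 0.347 and 5.15 ± 0.241 CPM in MN1 cells. The nearby gene Mtap had 52.1 ± 1.75 CPM in H9M and 112 ± 1.51 CPM in MN1 knockout cells. In the controls Mtap had 51.4 ± 1.59 CPM in H9M and 110 ± 1.81 CPM in MN1 cells.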
